A study of Mus musculus with 6 samples.

Results

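The genes of antioxidant defence and of glutathione metabolism were examined in hippocampal microarrays of NL-G-F·*Mutyh* mice, with wild-type mice for comparison. The set was a fixed list of 39 genes in 5 classes, and a gene was measured where at least 1 transcript cluster (the unit for which the array gives 1 value) carried its symbol alone, the cluster with the highest mean over the 6 arrays being taken. By this rule 35 of the 39 genes were measured, among 23521 clusters with 1 symbol and 41345 clusters in all. They comprised 7 of 7 NRF2 targets, 12 of 13 glutathione enzymes, 7 of 10 peroxiredoxins and thioredoxins, 4 of 4 superoxide dismutases and catalase, and 5 of 5 regulators and others. *Gstm5* and *Prdx1* lay only on clusters shared with other symbols, and *Prdx5* and *Prdx6* were not found by symbol, so these 4 genes were not analysed here.

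Superoxide dismutases turn superoxide into hydrogen peroxide, which is then removed by catalase, by peroxiredoxins that are reduced by thioredoxin, and by glutathione peroxidases that spend glutathione. The genes of many of these enzymes are activated by NRF2, a transcription factor that KEAP1 holds in the cytoplasm for degradation. Once oxidants or electrophiles modify KEAP1, NRF2 binds antioxidant response elements in DNA. In the brain the glutathione system and NRF2 activity are best known from astrocytes, which supply neurons with the precursors of glutathione.

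The tissue was the hippocampus of 6-month-old females, 3 per genotype, with 1 array for each. NL-G-F·*Mutyh* mice were homozygous for the *App* NL-G-F knock-in, which places a humanized amyloid-β sequence and the Swedish, Arctic and Iberian mutations under the endogenous *App* promoter, and lacked both alleles of *Mutyh*, which encodes a DNA glycosylase that removes adenine paired with oxidized guanine. Wild-type mice carried neither change, both genotypes came from crosses of lines backcrossed to C57BL/6J, and each was then kept as an inbred strain. Mice with the knock-in and intact *Mutyh* were not analysed here, so a difference cannot be assigned to *App* or to *Mutyh*. The wild-type arrays had first been used in an earlier series, so that genotype and series cannot be told apart.

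Values are log2 signals as deposited, and a difference is NL-G-F·*Mutyh* minus wild type on that scale. Array medians over all clusters lay between 5.65 and 5.66 in NL-G-F·*Mutyh* and between 5.55 and 5.64 in wild-type arrays, and pairs of arrays correlated at 0.983 to 0.989 across clusters. *App* gave 11.94 ± 0.12 in NL-G-F·*Mutyh* and 12.05 ± 0.09 in wild-type mice (mean ± SD, n = 3 each, adjusted *p* = 0.585, limma), and *Mutyh* gave 5.42 ± 0.05 in NL-G-F·*Mutyh* and 5.28 ± 0.17 in wild-type mice, below the level at which clusters were tested in both genotypes, so neither gene checks the genotypes. *Prox1*, a transcription factor of the dentate granule cells that mark the hippocampus, gave 8.97 to 9.45 in NL-G-F·*Mutyh* and 8.74 to 9.16 in wild-type arrays. Of 17 microglial markers, 4 passed the adjusted test, each with the higher signal in NL-G-F·*Mutyh* mice. *Clec7a*, a receptor of activated microglia and 1 of these 4, differed by 2.11. It was tested only through its NL-G-F·*Mutyh* mean of 6.59, since its wild-type mean of 4.47 was below the level for testing. The summed linear signal of the microglial list was 5432 to 5770 in NL-G-F·*Mutyh* and 3554 to 3763 in wild-type arrays. In bulk tissue, fewer cells of a type and less RNA per cell cannot be told apart.

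None of the 35 antioxidant genes passed the test at an adjusted *p* under 0.05 (limma with Benjamini-Hochberg adjustment over 21159 clusters), where 0.0614% of all tested clusters did. Of these clusters 12 had the higher signal in NL-G-F·*Mutyh* mice (0.0567%) and 1 the lower (0.00473%). The adjusted *p* values of the 35 genes lay between 0.207 and 0.996. Before adjustment, 7 of the 35 genes had a *p* under 0.05, against 13.6% of all clusters. *Mgst1*, *Gss*, *Hmox1* and *Nfe2l2* had the higher signal in NL-G-F·*Mutyh* mice, where 8.88% of all clusters did, and *Mgst3*, *Gsta4* and *Gpx4* the lower, where 4.75% did. The median difference was 0.01 over the 35 genes and 0.02 over all tested clusters, with 18 genes above 0 and 17 below.

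The split by direction depended on the scaling. Of all clusters with an unadjusted *p* under 0.05, 65.1% were higher in NL-G-F·*Mutyh* mice in the deposited values, 50.4% once quantiles were equalized and 39.2% after the median of all clusters was subtracted from each array. Under that centring the genes on the higher side were *Gss* and *Mgst1* alone, with differences of 0.20 for *Hmox1* and 0.20 for *Nfe2l2*, while *Prdx4* joined *Mgst3*, *Gsta4* and *Gpx4* on the lower side.

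In 10 genes the signals of the 2 genotypes did not overlap, all NL-G-F·*Mutyh* arrays lying above in 5 genes (13.9% of all clusters) and below in 5 genes (8.11% of all clusters), which made 22% of all clusters together. The standard error of a difference had a median of 0.09 over the 35 genes and ran from 0.06 for *Prdx2* to 0.34 for *Gpx8*. The 95% interval included 0 in 28 genes, and in 28 genes it lay within 0.5 of 0 on either side. The 7 genes whose interval reached beyond 0.5 were *Gpx8*, *Sod3*, *Nqo1*, *Slc7a11*, *Txnip*, *Mgst1* and *Gss*.

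**Figure D1:**
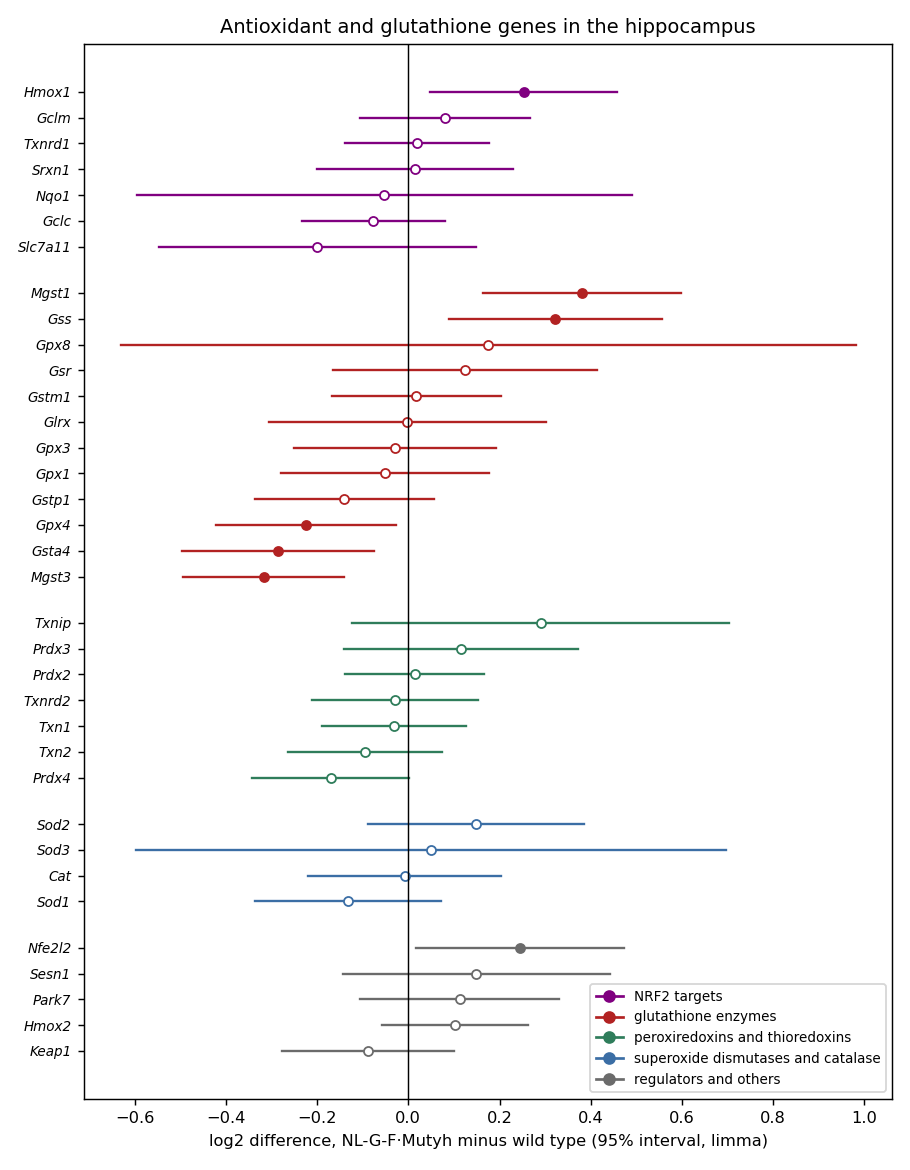
Log2 difference, NL-G-F·*Mutyh* minus wild type, for each of the 35 measured genes, by class, with its 95% interval from limma (n = 3 mice per genotype). Filled circles have an unadjusted *p* under 0.05, which 7 genes reached, 5 of them glutathione enzymes, and *Gpx8*, *Sod3* and *Nqo1* have the widest intervals.

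*Nfe2l2*, which encodes NRF2 itself, had signals of 7.95, 7.65 and 7.81 in NL-G-F·*Mutyh* arrays and 7.49, 7.54 and 7.65 in wild-type arrays (transcript cluster 17386700). The lowest NL-G-F·*Mutyh* array lay only just above the highest wild-type array. The difference was 0.25 (SE 0.10, adjusted *p* = 0.343). The unadjusted *p* was no longer under 0.05 without NL-G-F·*Mutyh* replicate 1 (difference 0.17) or 3 (0.24), or without wild-type replicate 1 (0.21) or 2 (0.24).

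*Keap1*, whose protein marks NRF2 for degradation, had signals of 7.26, 7.41 and 7.39 in NL-G-F·*Mutyh* arrays against 7.53, 7.38 and 7.42 in wild-type arrays. The groups overlapped, with a difference of −0.09 (SE 0.08, adjusted *p* = 0.640). A dimmer second cluster of *Keap1* differed by 0.14, in the opposite direction, and the mean of both clusters differed by 0.03.

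The NRF2 targets as a class had a median difference of 0.01. 1 of the 7, *Hmox1*, had an unadjusted *p* under 0.05. *Hmox1* encodes the inducible heme oxygenase, which breaks heme down to biliverdin, carbon monoxide and iron. Its signals were 6.68, 6.45 and 6.50 in NL-G-F·*Mutyh* arrays and 6.36, 6.21 and 6.31 in wild-type arrays (transcript cluster 17502573). All 3 NL-G-F·*Mutyh* arrays were above all 3 wild-type arrays, replicate 1 most clearly. The difference was 0.25 (SE 0.09, adjusted *p* = 0.304). It was 0.19 without NL-G-F·*Mutyh* replicate 1 and 0.21 without wild-type replicate 2, and in both cases the unadjusted *p* was no longer under 0.05.

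*Gclc*, the catalytic subunit of the enzyme that makes γ-glutamylcysteine in the rate-limiting step of glutathione synthesis, gave 8.53, 8.50 and 8.44 in NL-G-F·*Mutyh* arrays and 8.61, 8.54 and 8.54 in wild-type arrays. The groups did not overlap, but they were close together. The difference was −0.08 (SE 0.07, adjusted *p* = 0.628). *Gclm*, the modifier subunit of the same enzyme, differed by 0.08 (SE 0.08, adjusted *p* = 0.666).

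*Slc7a11*, the cystine importer that feeds glutathione synthesis, gave 8.23, 7.94 and 8.35 in NL-G-F·*Mutyh* arrays and 8.27, 8.22 and 8.62 in wild-type arrays. The range of NL-G-F·*Mutyh* arrays reached into that of wild type, and replicate 2 was the lowest of all arrays. The difference was −0.20 (SE 0.15, adjusted *p* = 0.571). A second, dim cluster of the gene differed by 0.01.

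*Txnrd1*, the cytosolic thioredoxin reductase, and *Srxn1*, the sulfiredoxin that restores overoxidized peroxiredoxins, differed by 0.02 (SE 0.07) and 0.01 (SE 0.09), and both took the opposite sign when arrays were centred on the median of all clusters. Of *Nqo1*, a quinone reductase often used as a readout of NRF2, the signals were 6.07, 5.25 and 5.94 in NL-G-F·*Mutyh* arrays and 5.55, 5.87 and 5.99 in wild-type arrays. NL-G-F·*Mutyh* replicate 2 and wild-type replicate 1 were the lowest of their groups, and the ranges overlapped. The difference was −0.05 (SE 0.23, adjusted *p* = 0.941) with all arrays and 0.20 without NL-G-F·*Mutyh* replicate 2.

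Antioxidant response elements have the core TGACNNNGC, and TGAGTCA is the middle of a related element that NRF2 also binds together with small MAF proteins. Both were searched on both strands of RefSeq promoters (GRCm38.p6, 250 bases before to 50 after a gene's start, 300 in all), which were found for 30 of the 35 genes and not for *Hmox1*, *Gclc*, *Gsr*, *Gsta4* and *Sod3*. The core was present in 6 of the 30 genes, or 20%, and in 14% of all 27025 genes with a promoter. TGAGTCA was present in 3 of the 30 genes, or 10%, and in 5.95% of all genes. Matches of both motifs can overlap, and in none of these genes did they. The sites below are shown because they lie upstream of the start of the NRF2 gene, of *Mgst1*, the gene with the largest difference of the 35, and of 3 NRF2 targets and *Sod1*, whose 95% intervals included 0. Capitals mark the matched letters, and a site on the other strand reads as the reverse complement of the core.
*Mgst1*, chr6:138140451-138140499, plus strand: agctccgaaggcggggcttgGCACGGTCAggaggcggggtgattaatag
*Nfe2l2*, chr2:75704875-75704913, minus strand: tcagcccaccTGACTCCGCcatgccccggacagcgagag
*Gclm*, chr3:122245403-122245451, plus strand: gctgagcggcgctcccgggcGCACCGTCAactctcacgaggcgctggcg
*Txnrd1*, chr10:82859094-82859142, plus strand: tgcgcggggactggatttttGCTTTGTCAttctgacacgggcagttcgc
*Sod1*, chr16:90220686-90220734, plus strand: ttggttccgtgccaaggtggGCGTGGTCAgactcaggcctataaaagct
*Srxn1*, chr2:152105402-152105505, plus strand: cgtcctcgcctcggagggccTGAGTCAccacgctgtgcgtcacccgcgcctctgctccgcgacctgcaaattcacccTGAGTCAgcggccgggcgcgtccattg

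In the *Srxn1* promoter the 2 copies of TGAGTCA began 102 and 45 bases before the start, and the gene differed by 0.01. The core in *Mgst1* began 56 bases before the start, that in *Gclm* 134, in *Txnrd1* 92, in *Sod1* 56 and in *Nfe2l2* 240. *Srxn1*, the other gene with the core, had it after the start. The 5 genes with the core upstream differed by 0.38, 0.08, 0.02, −0.13 and 0.25 in that order. Genes with the same match thus lay on both sides of 0. A match describes the letters and is not evidence of binding.

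Of the 12 measured glutathione enzymes, 5 had an unadjusted *p* under 0.05, 2 with the higher (8.88% of all clusters) and 3 with the lower signal (4.75%) in NL-G-F·*Mutyh* mice, and the median of the class was −0.02. *Gss* encodes glutathione synthetase, which adds glycine in the last step of glutathione synthesis. Its signals were 6.73, 6.57 and 6.77 in NL-G-F·*Mutyh* arrays and 6.53, 6.33 and 6.25 in wild-type arrays (transcript cluster 17393288). All NL-G-F·*Mutyh* arrays lay above all wild-type arrays, the closest being NL-G-F·*Mutyh* replicate 2 and wild-type replicate 1. The difference was 0.32 (SE 0.10, adjusted *p* = 0.273), or 125% wild type. *Gsr*, the reductase that regenerates reduced glutathione, differed by 0.12 (SE 0.12), and *Glrx*, the cytosolic glutaredoxin that removes glutathione from protein cysteines, by −0.00 (SE 0.13).

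Among the glutathione peroxidases, *Gpx4* alone had an unadjusted *p* under 0.05. Its product reduces lipid peroxides within membranes. The signals were 8.27, 8.15 and 8.14 in NL-G-F·*Mutyh* arrays and 8.29, 8.49 and 8.45 in wild-type arrays (transcript cluster 17235166). The groups did not overlap, but NL-G-F·*Mutyh* replicate 1 came within 0.02 of wild-type replicate 1. The difference was −0.22 (SE 0.08, adjusted *p* = 0.328). The unadjusted *p* was no longer under 0.05 without NL-G-F·*Mutyh* replicate 2 (difference −0.20) or 3 (−0.20), or without wild-type replicate 2 (−0.18) or 3 (−0.20). *Gpx1*, the cytosolic peroxidase, and *Gpx3*, the secreted one, differed by −0.05 (SE 0.10) and −0.03 (SE 0.09).

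*Gpx8*, a peroxidase of the endoplasmic reticulum, varied most. Its signals were 7.99, 7.01 and 7.90 in NL-G-F·*Mutyh* arrays and 6.97, 7.42 and 8.00 in wild-type arrays. Both genotypes spanned nearly the same range. The difference was 0.18 (SE 0.34, adjusted *p* = 0.848), 0.49 without NL-G-F·*Mutyh* replicate 2 and −0.07 without wild-type replicate 1.

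The transferases held the largest differences of the set in each direction. *Mgst1* and *Mgst3* encode microsomal glutathione transferases, membrane proteins that also reduce lipid hydroperoxides. *Mgst1* gave 6.80, 6.58 and 6.84 in NL-G-F·*Mutyh* arrays and 6.28, 6.38 and 6.42 in wild-type arrays (transcript cluster 17463909). All NL-G-F·*Mutyh* arrays were above all wild-type arrays, with replicate 2 the nearest. The difference was 0.38 (SE 0.09, adjusted *p* = 0.212), or 130% wild type.

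*Mgst3* gave 7.66, 7.71 and 7.68 in NL-G-F·*Mutyh* arrays and 8.09, 8.01 and 7.90 in wild-type arrays (transcript cluster 17229403). The NL-G-F·*Mutyh* arrays were tightly grouped and all below wild type. The difference was −0.32 (SE 0.07, adjusted *p* = 0.207), or 80.3% wild type, and this was the smallest adjusted *p* of the 35 genes.

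*Gsta4*, a cytosolic transferase that conjugates the lipid peroxidation product hydroxynonenal, gave 9.35, 9.09 and 9.34 in NL-G-F·*Mutyh* arrays and 9.56, 9.54 and 9.54 in wild-type arrays (transcript cluster 17519649). Wild-type arrays were nearly alike, and all NL-G-F·*Mutyh* arrays lay below them, replicate 2 the furthest. The difference was −0.29 (SE 0.09, adjusted *p* = 0.275), or 82.0% wild type. *Gstp1*, a transferase abundant in oligodendrocytes, differed by −0.14 (SE 0.08, adjusted *p* = 0.484), and *Gstm1*, a transferase of the mu class, by 0.02 (SE 0.08), a value that became −0.03 when arrays were centred on the median of all clusters.

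**Figure D2:**
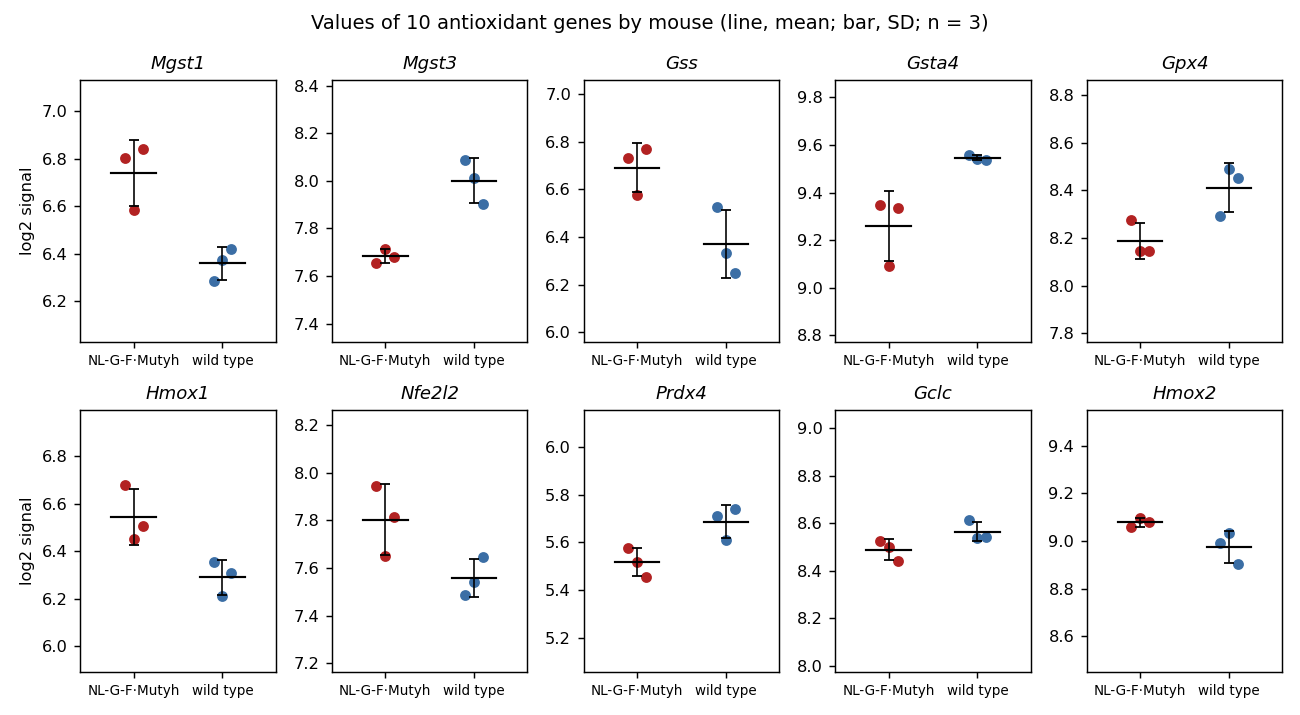
Log2 signal of each array (points) for the 10 genes whose genotypes did not overlap, NL-G-F·*Mutyh* left and wild type right, with the mean (line) and SD (bar, n = 3). Every panel spans the same height on the log2 scale. *Mgst1*, *Gss*, *Hmox1*, *Nfe2l2* and *Hmox2* lie above wild type and *Mgst3*, *Gsta4*, *Gpx4*, *Prdx4* and *Gclc* below it.

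None of the 7 measured peroxiredoxins and thioredoxins had an unadjusted *p* under 0.05, and their median difference was −0.03. *Prdx4*, the peroxiredoxin of the endoplasmic reticulum, came closest, with 5.58, 5.52 and 5.46 in NL-G-F·*Mutyh* arrays and 5.71, 5.61 and 5.74 in wild-type arrays. The groups did not overlap, and the NL-G-F·*Mutyh* mean was below the level of 5.64 set for testing, which the wild-type mean passed. The difference was −0.17 (SE 0.07, adjusted *p* = 0.371).

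*Txnip*, which binds and inhibits thioredoxin, gave 8.51, 8.15 and 8.06 in NL-G-F·*Mutyh* arrays and 7.75, 7.83 and 8.27 in wild-type arrays. The groups overlapped through wild-type replicate 3. The difference was 0.29 (SE 0.17, adjusted *p* = 0.490), and without that array it was 0.45, with an unadjusted *p* under 0.05. The cytosolic peroxiredoxin *Prdx2* and the mitochondrial *Prdx3* differed by 0.01 (SE 0.06) and 0.12 (SE 0.11). Cytosolic thioredoxin, *Txn1*, differed by −0.03 (SE 0.07), mitochondrial thioredoxin, *Txn2*, by −0.10 (SE 0.07) and its reductase, *Txnrd2*, by −0.03 (SE 0.08).

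The superoxide dismutases lay on both sides of 0. *Sod1*, the cytosolic copper and zinc enzyme, gave 10.57, 10.38 and 10.32 in NL-G-F·*Mutyh* arrays and 10.51, 10.60 and 10.57 in wild-type arrays. NL-G-F·*Mutyh* replicates 2 and 3 were below all wild-type arrays and replicate 1 was among them. The difference was −0.13 (SE 0.09, adjusted *p* = 0.523), and −0.21, with an unadjusted *p* under 0.05, without NL-G-F·*Mutyh* replicate 1.

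*Sod2*, the manganese enzyme of mitochondria, gave 10.30, 10.35 and 10.62 in NL-G-F·*Mutyh* arrays and 10.35, 10.26 and 10.22 in wild-type arrays. The groups overlapped, and NL-G-F·*Mutyh* replicate 3 was the highest. The difference was 0.15 (SE 0.10, adjusted *p* = 0.538). *Cat*, the catalase of peroxisomes, differed by −0.01 (SE 0.09).

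*Sod3*, the extracellular dismutase, gave 7.10, 6.76 and 6.81 in NL-G-F·*Mutyh* arrays and 6.38, 6.66 and 7.48 in wild-type arrays. The wild-type arrays spanned more than the whole range of the NL-G-F·*Mutyh* arrays. The difference was 0.05 (SE 0.27, adjusted *p* = 0.952), and 0.37, with an unadjusted *p* under 0.05, without wild-type replicate 3.

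The other genes of the list had small differences. *Hmox2*, the constitutive heme oxygenase, gave 9.06, 9.10 and 9.08 in NL-G-F·*Mutyh* arrays and 8.99, 9.03 and 8.90 in wild-type arrays. The groups did not overlap, and the difference was 0.10 (SE 0.07, adjusted *p* = 0.531). *Sesn1*, a sestrin induced by p53 under stress, differed by 0.15 (SE 0.12), and *Park7*, which encodes the redox-sensitive protein DJ-1, by 0.11 (SE 0.09).

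Markers of the choroid plexus and of the ependyma, which line or lie in the ventricles beside the hippocampus, varied between arrays within each genotype, and their part in the results was not tested. The mean log2 signal of 8 such markers, 6 of choroid plexus and the ependymal genes *Foxj1* and *Ccdc153*, was 8.29, 7.43 and 8.22 in NL-G-F·*Mutyh* arrays and 7.13, 8.09 and 8.55 in wild-type arrays, and the summed linear signal was 6819 to 13472 in NL-G-F·*Mutyh* and 3795 to 14572 in wild-type arrays. *Ttr*, the transthyretin of choroid plexus epithelium, gave 13.47, 12.51 and 13.33 in NL-G-F·*Mutyh* arrays and 11.56, 13.34 and 13.55 in wild-type arrays. NL-G-F·*Mutyh* replicate 2 and wild-type replicate 1 were the lowest of their genotype for the marker mean, all 6 choroid plexus markers and *Foxj1*, but not *Ccdc153*. Of the 35 antioxidant genes, these arrays were also the lowest for only *Gpx8*, *Nqo1* and *Sod3*, and for *Mgst1* and *Nfe2l2*, which had an unadjusted *p* under 0.05. The share of all clusters with this order was not counted. The order was not particular to these markers. The mean of 11 markers of pericytes, smooth muscle and meningeal fibroblasts was 7.29, 7.13 and 7.35 in NL-G-F·*Mutyh* arrays. In wild-type arrays it was 7.07, 7.36 and 7.43, though not every gene of that list had this order. *Foxj1* also separated the genotypes, with 6.09 to 6.34 in NL-G-F·*Mutyh* and 6.44 to 6.79 in wild-type arrays (−0.38, adjusted *p* = 0.277, limma). Without NL-G-F·*Mutyh* replicate 2 and wild-type replicate 1, a setting chosen after the data were seen, *Gpx8* differed by 0.24, *Nqo1* by 0.07 and *Sod3* by −0.12, and 4 higher and 2 lower genes had an unadjusted *p* under 0.05, *Gsta4* being the one that no longer did (−0.20).

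**Figure D3:**
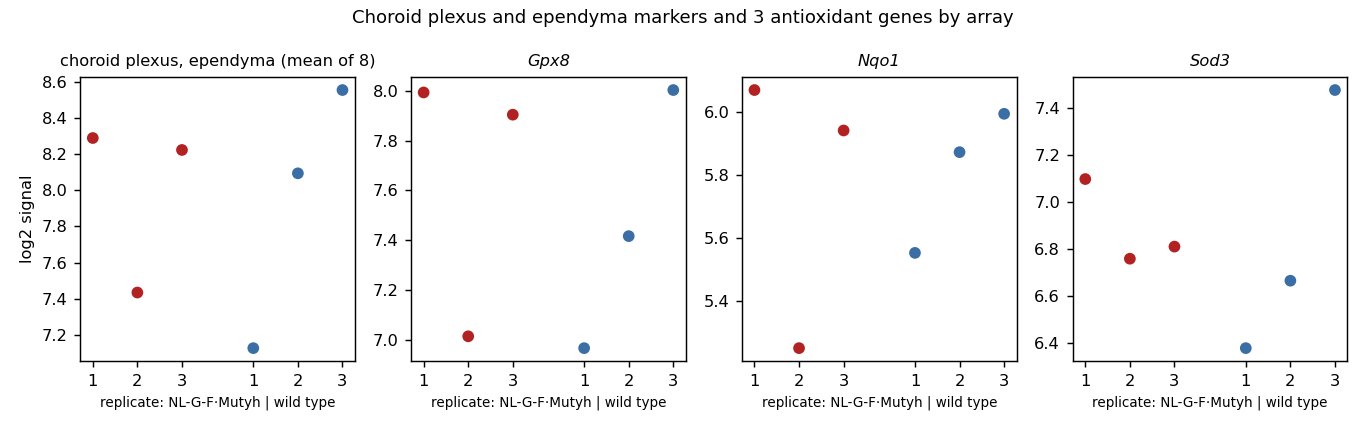
Mean log2 signal of 8 choroid plexus and ependyma markers and log2 signal of *Gpx8*, *Nqo1* and *Sod3* in each array, the NL-G-F·*Mutyh* replicates left and the wild-type replicates right in every panel (1 point per array, each panel with its own scale). NL-G-F·*Mutyh* replicate 2 and wild-type replicate 1 are the lowest of their genotype in all 4 panels.

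Cell markers of other kinds are given beside the gene classes they may touch, and their part was not tested either. The mean log2 signal of the 17 microglial markers was 7.72, 7.75 and 7.69 in NL-G-F·*Mutyh* arrays and 7.15, 7.08 and 7.10 in wild-type arrays. It separated the genotypes in the direction of *Hmox1*, *Mgst1*, *Gss*, *Nfe2l2* and *Hmox2*, and opposite to *Mgst3*, *Gsta4*, *Gpx4*, *Prdx4* and *Gclc*. These genes are named because their genotypes did not overlap, so a shared direction is no test of a cell source. In 15 of the 17 markers all NL-G-F·*Mutyh* arrays lay above all wild-type arrays, as in 13.9% of all clusters. Among these markers *Clec7a*, *Itgax* and *Laptm5* were tested only through their NL-G-F·*Mutyh* means, their wild-type means being below the level set for testing. Of 2 receptors of resting microglia, *P2ry12* gave 8.01 to 8.31 in NL-G-F·*Mutyh* and 7.72 to 7.97 in wild-type arrays. *Cx3cr1* gave 8.29 to 8.31 in NL-G-F·*Mutyh* and 8.26 to 8.33 in wild-type arrays. *Tmem119* was the only 1 of the 17 markers with a difference below 0 (−0.12, adjusted *p* = 0.586, limma). It gave 6.84, 6.83 and 6.75 in NL-G-F·*Mutyh* and 7.07, 6.87 and 6.82 in wild-type arrays, and the groups overlapped. At an unadjusted *p* under 0.05, 8.88% of all clusters were higher and 4.75% lower. Of 10 astrocyte markers, 1, *Gfap*, had an unadjusted *p* under 0.05, with a difference of 0.68 (adjusted *p* = 0.0857), and the list had a median of 0.07. Astrocyte differences were above 0 in 8 of the 10 and below in 2, *Aldh1l1* (−0.23, adjusted *p* = 0.385, limma) and *Sox9* (−0.08). Of 9 oligodendrocyte markers 3 had an unadjusted *p* under 0.05, all with the lower signal in NL-G-F·*Mutyh* mice, and the list had a median of −0.14. Differences were above 0 in 4 of the 9 and below in 5. The list mean overlapped between the genotypes, with 9.30 to 9.47 in NL-G-F·*Mutyh* and 9.37 to 9.57 in wild-type arrays. Dentate granule cell markers had a median of 0.34, with 3 of 6 higher at an unadjusted *p* under 0.05, and neuronal markers a median of 0.01. The dentate list mean overlapped between the genotypes, with 8.28 to 8.75 in NL-G-F·*Mutyh* and 8.09 to 8.33 in wild-type arrays. Of 4 erythrocyte genes, 1 was measured, below the level set for testing.

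Beyond the 35 genes, 112 further genes of the same network were listed in 9 groups, 100 were measured and 89 tested. None passed the adjusted test, 10 had an unadjusted *p* under 0.05 with the higher and 5 with the lower signal in NL-G-F·*Mutyh* mice, against 8.88% and 4.75% of all clusters. Their median was 0.04. The balance between the directions depended on the scaling, with 4 higher and 7 lower after centring on the median of all clusters and 7 of each once quantiles were equalized. With 1 array left out, 5 to 10 were higher and 1 to 6 lower, with 5 higher without NL-G-F·*Mutyh* replicate 2 or wild-type replicate 3, 3 lower without NL-G-F·*Mutyh* replicate 3, and 6 higher and 1 lower without wild-type replicate 2. Of the other glutathione enzymes, 5 were higher and 1 lower of 18 tested, with a median of 0.15. *Ggt5* and *Gstm6*, the genes of this group with the largest differences, were tested only because their NL-G-F·*Mutyh* means passed the level set for testing, and among the 16 genes with both means above it 3 were higher and 1 lower, with a median of 0.13.

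*Ggt5*, a γ-glutamyl transferase that cleaves extracellular glutathione conjugates such as leukotriene C, gave 5.89, 5.69 and 5.76 in NL-G-F·*Mutyh* arrays and 5.42, 5.30 and 5.40 in wild-type arrays. The groups were well apart, and the wild-type mean was below the level set for testing. The difference was 0.41 (SE 0.08, adjusted *p* = 0.181). Its relative *Ggt7* went the other way, with 7.51, 7.56 and 7.27 in NL-G-F·*Mutyh* arrays and 7.69, 7.71 and 7.73 in wild-type arrays (−0.26, SE 0.09, adjusted *p* = 0.310). *Gstm6*, of the mu class transferases, differed by 0.33 (SE 0.07, adjusted *p* = 0.187). Its wild-type mean was below the level set for testing, and the mu class genes have closely related sequences, so that probes may not tell them apart.

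*Glo1*, the glyoxalase that detoxifies methylglyoxal with glutathione, gave 9.19, 9.19 and 9.25 in NL-G-F·*Mutyh* arrays and 8.96, 8.75 and 9.03 in wild-type arrays. All NL-G-F·*Mutyh* arrays were above all wild-type arrays, with a difference of 0.30 (SE 0.09, adjusted *p* = 0.268). *Hpgds*, the glutathione-dependent prostaglandin D synthase found in brain microglia, differed by 0.24 (SE 0.08, adjusted *p* = 0.303). *Arrdc4*, a relative of *Txnip*, differed by 0.28 (SE 0.07, adjusted *p* = 0.207), and *Nfe2l1*, a relative of *Nfe2l2* that controls proteasome genes, by 0.21 (SE 0.07, adjusted *p* = 0.326).

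On the lower side, *Blvrb*, a biliverdin reductase, gave 5.88, 5.83 and 5.63 in NL-G-F·*Mutyh* arrays and 6.01, 6.12 and 6.03 in wild-type arrays. The groups did not overlap, and the difference was −0.28 (SE 0.09, adjusted *p* = 0.285). *Slc3a2*, the heavy chain that carries the cystine importer to the membrane, differed by −0.17 (SE 0.07, adjusted *p* = 0.344), *Selenoh*, a nuclear selenoprotein, by −0.27 (SE 0.08, adjusted *p* = 0.273), and *Aifm2*, a ubiquinone reductase that guards against lipid peroxidation alongside *Gpx4*, by −0.21 (SE 0.08, adjusted *p* = 0.333). *Aifm2* was tested only through its wild-type mean, since the NL-G-F·*Mutyh* mean was below the level set for testing. Genes for NADPH supply and for cysteine supply, 6 tested in each group, held none with an unadjusted *p* under 0.05 and had medians of −0.01 and −0.01.

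**Figure D4:**
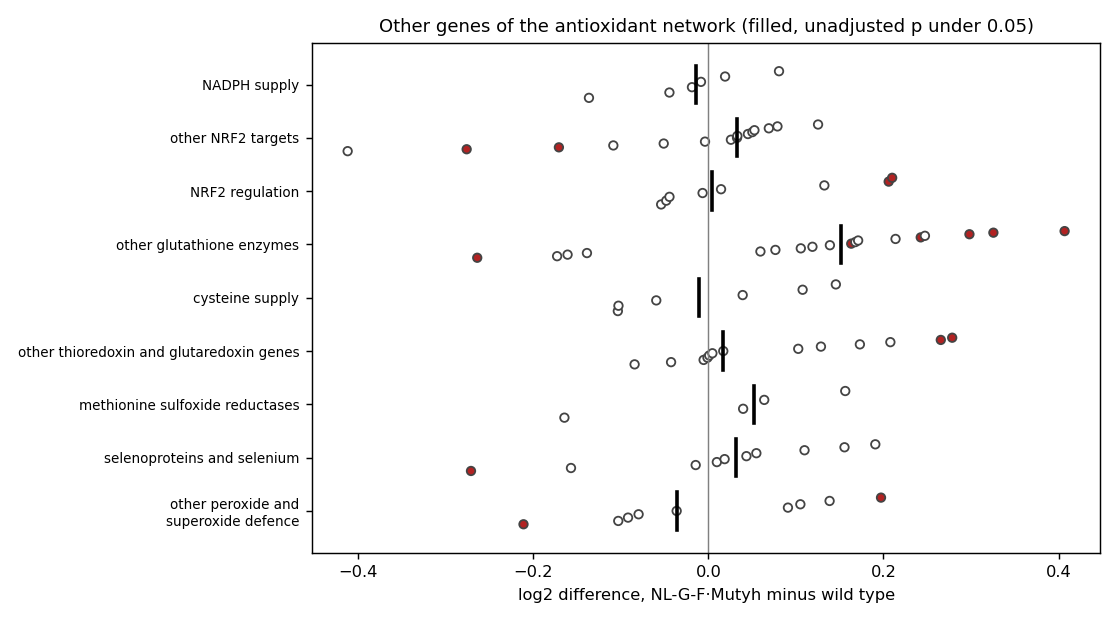
Log2 difference, NL-G-F·*Mutyh* minus wild type, for the 89 tested genes of 9 further groups of the antioxidant network (1 circle per gene, vertical lines for group medians). Filled circles, 15 in all, have an unadjusted *p* under 0.05, and the other glutathione enzymes have the highest median, 0.15.

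The 7 genes with an unadjusted *p* under 0.05 kept their sign in all 17 alternative ways of processing the values. Since their genotypes did not overlap, leaving out or weighting arrays could not change the sign. Several other settings left the difference itself unchanged, so the kept sign is no test of these genes. The genes kept that *p* to different degrees. *Gss*, *Mgst1* and *Mgst3* stayed under 0.05 in 17 of 17, *Gsta4* in 16, *Hmox1* in 14, *Gpx4* in 12 and *Nfe2l2* in 9. The difference of *Mgst1* ranged from 0.29 to 0.46, that of *Gss* from 0.26 to 0.46 and that of *Mgst3* from −0.37 to −0.27. In none of them did any of the 35 genes pass the adjusted test, the smallest adjusted *p* being 0.0947, for *Mgst3*.

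**Figure D5:**
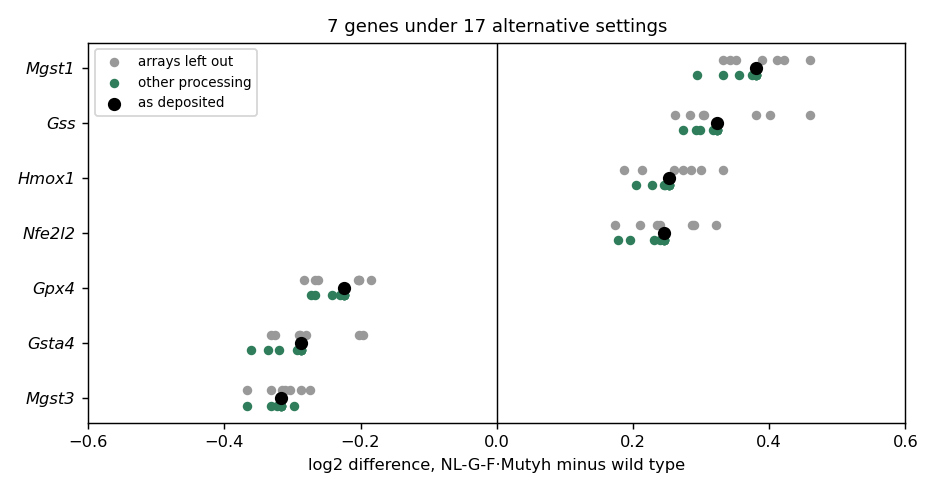
Log2 difference, NL-G-F·*Mutyh* minus wild type, of the 7 genes with an unadjusted *p* under 0.05, with the values as deposited (black), with arrays left out (grey) and with other processing (green), 17 alternatives in all. No point crosses 0, which for arrays left out was fixed beforehand, since the genotypes did not overlap in these genes. *Mgst1* keeps the most distance from 0 on the higher side, at 0.29 or more.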

How the data were processed

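Hippocampal RNA was hybridised to GeneChip Mouse Gene 2.0 ST arrays. The deposited values are log2 signals per transcript cluster, which the authors made from the array files with Transcriptome Analysis Console 4.0. How the signals were summarized and normalized, and on which genome build, is not stated in the sources at hand, and no further normalization was applied. Clusters with a mean signal of at least 50 (5.64 on the log2 scale) in 1 or both genotypes were tested, 21159 in all, with limma 3.58.1 in R 4.3.3 and Benjamini-Hochberg adjustment over all of them. The procedure was tested on simulated data. Gene symbols came from the platform annotation, with 23521 clusters carrying 1 symbol, 1820 several and 16004 none. The text gives every array's value for genes with an unadjusted *p* under 0.05, for those whose genotypes did not overlap and for the extremes of each class, and the choice of *Gpx8*, *Nqo1* and *Sod3* for their spread followed from the values. Of the further lists, genes past the adjusted test and up to 6 in each direction with the smallest unadjusted *p* under 0.05 are named. The genes and lists were chosen with earlier results of these data known. The alternatives were other intensity minimums, normalizations and moderation settings, array weights, a replicate block, other choices of cluster, and leaving out each array, 16 planned and 1 added. Sequences and motif matches came from RefSeq promoters of GRCm38.p6. With 3 arrays per genotype, the number of arrays limits the precision. The deposited labels give no dates or slides, so batches were not examined.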

Additional observations from a re-analysis of the deposited data

How the results depend on the processing

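The count of 13 clusters past the adjusted test was 8 with the signal minimum in both genotypes, 42 with array weights, 43 over clusters with 1 symbol only, 2 with the replicate block, 2 to 3 with 1 array left out and 0 without NL-G-F·*Mutyh* replicate 2 and wild-type replicate 1 together (1176 higher and 859 lower at an unadjusted *p* under 0.05, limma), a setting chosen after the data were seen. None of the 35 antioxidant genes passed under any alternative. Of these genes, 4 were higher at an unadjusted *p* under 0.05, against 2 after centring on the median of all clusters and 2 to 6 with 1 array left out (2 without NL-G-F·*Mutyh* replicate 1 or wild-type replicate 2, 6 without wild-type replicate 3). Of the further genes of the network, 10 were higher and 5 lower at that *p*, against 4 and 7 after that centring, 5 to 10 and 1 to 6 with 1 array left out, and 7 and 2 without both arrays. The same replicate numbers did not pair the samples (correlations of −0.10, 0.02 and −0.06), and with the replicate block 3 higher and 2 lower antioxidant genes had an unadjusted *p* under 0.05. The median of the superoxide dismutases and catalase was −0.0287 after that centring, −0.0831 to 0.0855 with 1 array left out and −0.0453 without both arrays. The median of the glutathione enzymes was −0.0984 with array weights.

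Of 35 genes, 22 kept their sign throughout and 13 did not in 38 of 594 values, the largest of the 13 being *Gpx8* at 0.18. With equalized quantiles *Srxn1* was −0.00292 and *Prdx2* −0.00787. After centring on the median of all clusters *Txnrd1* was −0.0298, *Srxn1* −0.0345, *Gstm1* −0.0318, *Prdx2* −0.0347 and *Sod3* −0.000213. With array weights *Gpx8* was −0.15, *Txn1* 0.000934 and *Sod3* −0.00503, and over the mean of its clusters *Keap1* was 0.0259. Without both arrays *Nqo1* was 0.0721, *Glrx* 0.14, *Sod3* −0.12 and *Cat* 0.0262. With 1 array left out the differences ran as follows, *Nqo1* from −0.21 to 0.20, *Txnrd1* from −0.0123 to 0.0445, *Srxn1* from −0.0566 to 0.0906, *Gpx3* from −0.0728 to 0.0571, *Gpx8* from −0.0727 to 0.49, *Gstm1* from −0.0272 to 0.0576, *Glrx* from −0.11 to 0.12, *Prdx2* from −0.00307 to 0.0365, *Txnrd2* from −0.0693 to 0.0259, *Sod3* from −0.18 to 0.37 and *Cat* from −0.0621 to 0.0495. The cause of these changes was not tested, beyond the fewer tested clusters or arrays that the settings name.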
